A study of Mus musculus with 47 samples.

Results

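The DEAD and DEAH box genes encode RNA helicases, enzymes that use ATP to unwind RNA or to strip proteins from it, and are named after a short amino acid motif in their ATP-binding core. Members were protein-coding mouse genes whose symbol starts with Ddx or Dhx and a digit, without the sex chromosome pair Ddx3x and Ddx3y. This gave 51 genes, and 47 of them passed the level filter of at least 0.5 RPKM (reads per kilobase of exon and per M, or mega, of reads) in at least 12 libraries, out of 15321 genes that passed it and 57180 in the table. The genes below the filter were the germ line helicases Ddx4 and Ddx43 and the antiviral factors Dhx58 and Ddx60. They averaged 0.335 RPKM for Ddx4, 0.261 for Dhx58, 0.133 for Ddx60 and 0.0315 for Ddx43, and only Ddx4 reached 0.5 RPKM in any library, in 6 of 47. Just inside the filter were Ddx11, at a mean of 0.475 RPKM with 20 libraries at 0.5 or more, and Ddx58, at 0.652 RPKM with 39 such libraries. The remaining 45 members reached 0.5 RPKM in all 47 libraries.

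The retinas came from the right eyes of aged (20 months) and young (6 weeks) C57BL/6 mice kept under a 12 h light and 12 h dark cycle, with 4 mice per age at each of 6 times, 4 h apart. Times are given as Zeitgeber time (ZT), counted in hours from lights on. The light times were therefore ZT2, ZT6 and ZT10, and the dark ones ZT14, ZT18 and ZT22. Polyadenylated RNA was sequenced, 1 library per mouse, and 23 aged libraries (3 at ZT18) and 24 young libraries entered the comparisons. In bulk retina, fewer cells of a type and less RNA per cell cannot be told apart.

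Retinal photoreceptors renew their light-sensing membranes and change their metabolism every day, and each step of making the needed proteins passes through RNA helicases. Some members remodel the spliceosome, others separate small nucleolar RNAs from pre-ribosomal RNA in the nucleolus, and others escort mRNA through the nuclear pore, scan it for a start codon, or hand it to decay. A small group senses viral RNA. In most tissues these genes are regarded as housekeeping genes, and ribosome assembly is among the processes known to follow a daily cycle in mouse liver.

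Libraries held an implied 32.0 to 55.5 M reads. The median depth was 37.0 M in aged and 37.2 M in young libraries, and the fewest reads of a tested member in any library were 48. Rod photoreceptor markers were at 13430 to 22900 RPKM in sum in aged and 13630 to 21550 in young libraries, with none of the 8 at 0. In 2 libraries the members stood apart from the other libraries of their group. The median distance of a member from the mean of the other 3 libraries, on the log2 scale, was 0.401 in aged ZT6 replicate 3 and 0.345 in young ZT10 replicate 4, against 0.0501 to 0.179 in the other 45. In aged ZT6 replicate 3, Dhx38 was at 6.59 RPKM against a mean of 14.4 in the other 3, and Dhx36 at 16.6 against 10.2. In young ZT10 replicate 4, Dhx9 was at 7.82 RPKM against 21.9, and Ddx25 at 1.28 against 5.81. Counts are therefore given with and without both.

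Promoter sequence is shown for 4 of the 6 genes rhythmic at both ages, so that clock-related motifs can be looked for beside the values. The others, Ddx20 and Ddx31, are not shown, and neither was among the members with a match to any of the 6 motifs searched. The printed windows thus hold a motif more often than was found over the 6 genes. Only 42 of the 47 members had a window, and whether Ddx20 and Ddx31 did is not given here. Each line holds 300 bases of RefSeq sequence (GRCm38.p6), from 250 bases before the annotated gene start to 50 after it. The windows lie at chr11:83941840-83942139 (plus strand) for Ddx52, chr2:158794557-158794856 (plus strand) for Dhx35, chr11:71004383-71004682 (minus strand) for Dhx33 and chr8:70302422-70302721 (minus strand) for Ddx49, and each sequence reads 5′ to 3′ on the gene's strand. Capitals mark the E-box CACGTG in Dhx35 and Dhx33, the motif bound by the CLOCK and BMAL1 pair, and the cyclic AMP element TGACGTCA in Ddx49. Ddx52 holds none of the 6 motifs searched and is shown for its cycle, the largest of the members.
Ddx52: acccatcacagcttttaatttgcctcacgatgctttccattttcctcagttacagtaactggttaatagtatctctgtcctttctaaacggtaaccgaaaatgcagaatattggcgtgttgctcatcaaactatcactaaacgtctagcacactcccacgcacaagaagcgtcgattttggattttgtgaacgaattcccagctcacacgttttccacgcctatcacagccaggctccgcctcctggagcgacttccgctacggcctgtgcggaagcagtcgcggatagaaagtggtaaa
Dhx35: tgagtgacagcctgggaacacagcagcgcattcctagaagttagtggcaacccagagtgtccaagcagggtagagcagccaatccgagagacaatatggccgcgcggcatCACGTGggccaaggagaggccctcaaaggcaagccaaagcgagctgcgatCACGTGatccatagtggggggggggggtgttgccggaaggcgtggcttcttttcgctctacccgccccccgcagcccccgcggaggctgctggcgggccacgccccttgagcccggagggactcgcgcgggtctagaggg
Dhx33: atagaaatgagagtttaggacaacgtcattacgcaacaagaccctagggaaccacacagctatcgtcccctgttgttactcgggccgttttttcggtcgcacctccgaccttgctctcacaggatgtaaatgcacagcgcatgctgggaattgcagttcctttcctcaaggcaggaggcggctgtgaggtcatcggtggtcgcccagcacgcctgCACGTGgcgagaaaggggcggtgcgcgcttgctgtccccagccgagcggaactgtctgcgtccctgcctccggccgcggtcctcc
Ddx49: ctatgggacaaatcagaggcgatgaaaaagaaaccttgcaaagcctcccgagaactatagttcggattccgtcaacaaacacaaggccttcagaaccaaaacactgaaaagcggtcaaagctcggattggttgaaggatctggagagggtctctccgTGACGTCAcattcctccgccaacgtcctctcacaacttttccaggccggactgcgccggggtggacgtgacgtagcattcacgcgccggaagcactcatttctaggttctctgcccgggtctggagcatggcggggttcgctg

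The E-boxes of Dhx35 begin 140 and 90 bases before the gene start, that of Dhx33 begins 35 bases before it, and the cyclic AMP element of Ddx49 begins 93 bases before it. Among 42 members with a window, 53 windows were searched on both strands. The E-box CACGTG was in 6 of the 53 (11.3%), those of Ddx5, Ddx25, Ddx42, Dhx33, Dhx35 and Dhx40, and in 7.15% of all 32851 windows in the RefSeq table. The cyclic AMP element TGACGTCA was in 6 windows (11.3%) of 5 members, Ddx19a, Ddx28, Ddx49, Ddx51 and Dhx36, and in 1.79% of all windows. Of the 23 members with a window that were rhythmic in at least 1 age, 4 held the E-box and 3 the cyclic AMP element. Over all 42 members with a window, 6 and 5 did. The D-box TTATGTAA was in 1 member window, that of Dhx37, and in 0.938% of all. The orphan receptor half-site AGGTCA was in 8 member windows (15.1%) and in 16.3% of all. The interferon-stimulated response element was in 3 windows, of Ddx49 and Ddx58, and the heat shock element GAANNTTC in 5, against 3.44% and 7.86% of all windows. A match is a description of letters in a window and no evidence of binding.

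Levels spanned a wide range, and each is given as RPKM, a scale per length of exon. Ddx5 and Ddx17, which assist the microRNA processor Drosha and act as transcriptional coregulators, led with means of 204 and 85.5 RPKM over all libraries. Ddx5 had a lowest, median and highest level of 175, 205 and 234 RPKM in aged retinas and of 170, 203 and 251 RPKM in young retinas. Ddx39b, which loads the export machinery onto spliced mRNA, followed at 46.1 RPKM, Ddx6, a decapping activator and translational repressor of P-bodies, at 45.3, and Ddx1, a subunit of the tRNA ligase complex, at 42.2. The neighbours Ddx39b and Ddx6 overlapped, at 24.2 to 52.0 and 36.6 to 59.7 RPKM in aged libraries and 38 to 68.7 and 37.9 to 51.0 RPKM in young libraries.

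The lowest tested members were Ddx11, a DNA helicase of sister chromatid cohesion despite its name, Ddx58 (RIG-I, a cytoplasmic sensor of viral RNA) and Dhx33, which acts in ribosomal RNA synthesis. Dhx33 averaged 2.33 RPKM. Ddx25, known as a testis helicase needed for sperm maturation, was at 2.76 to 8.15 RPKM with a median of 4.80 in aged retinas, and at 1.28 to 7.20 RPKM with a median of 4.91 in young retinas. The other 2 germ line genes in the table, Ddx4 and Ddx43, were below the filter.

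**Figure D1:**
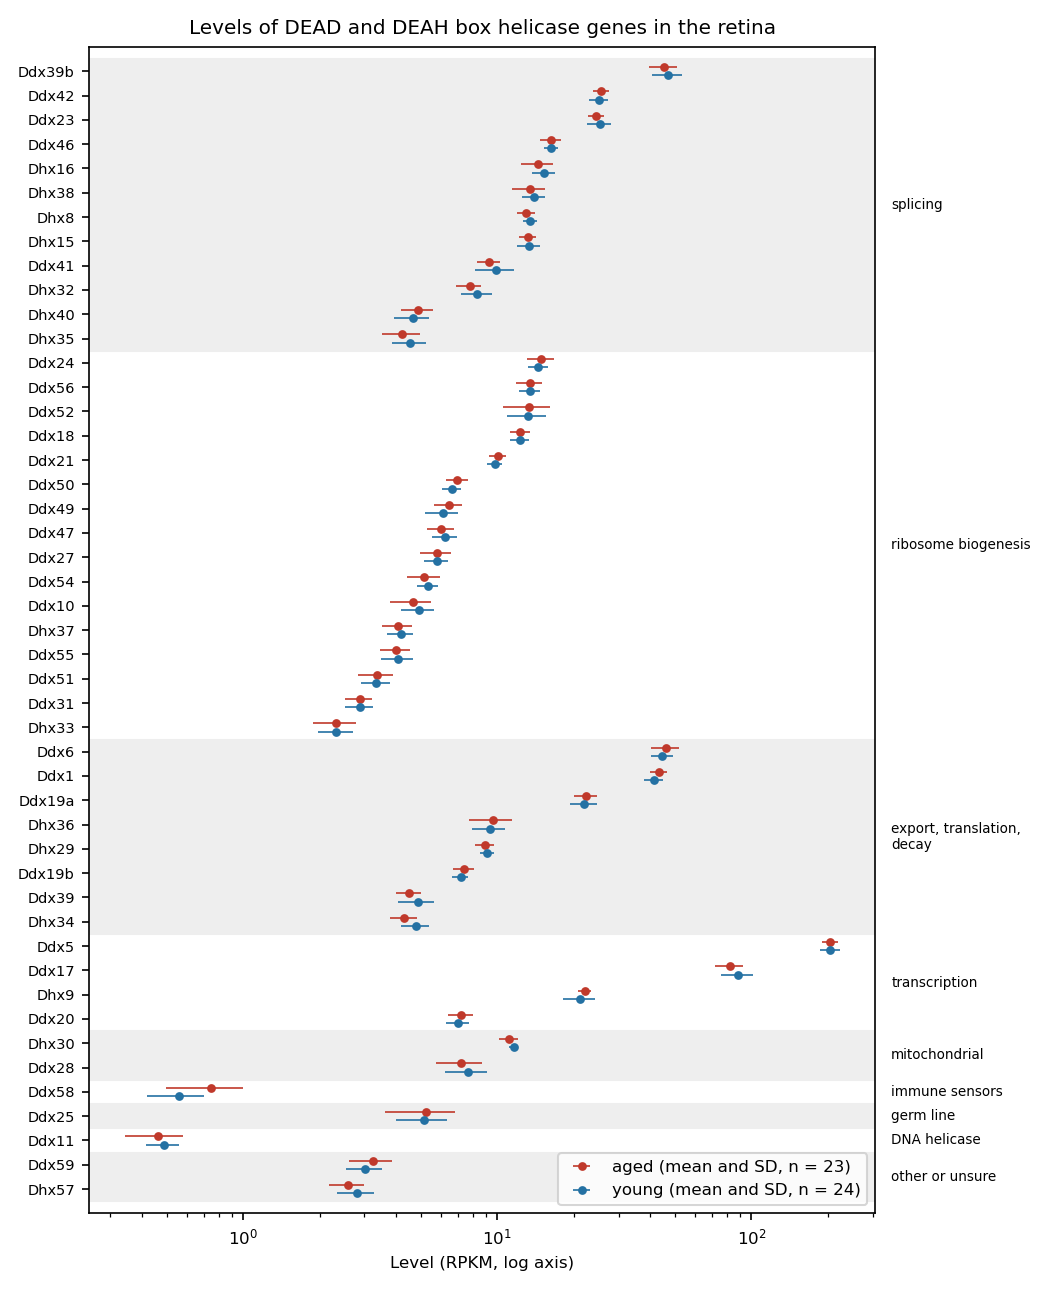
Mean level of each tested helicase gene in aged (red) and young (blue) retinas, on a log10 axis of RPKM, with bars for the SD over 23 aged and 24 young libraries, grouped by role. Ddx5 leads at about 204 RPKM at both ages, and Ddx58 and Ddx11 are the lowest.

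The first comparison asked which helicase genes differ in level between aged and young retinas, averaged over the day. Age moved few members and by little. By limma on log2(RPKM + 0.5), with p-values adjusted over all 15321 genes, 1 of 47 members passed an adjusted p of 0.05, which is 2.13% beside 4.24% of all genes tested (649). None of the 47 was higher, where 2.41% of all genes were, and 1 was lower, where 1.83% were. No member passed with a fold over 1.5, as 0.49% of all genes did. The log2 differences (aged minus young) of the 47 ran from -0.14 to 0.22 with a median of -0.01, beside a median of -0.02 over all genes. At an unadjusted p under 0.05 the counts were 7 of 47 members (14.9%) and 15.7% of all genes.

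The member that fell was Dhx34 (ENSMUSG00000006019), a helicase that promotes nonsense-mediated decay of mRNA in human cells and in worms. Its lowest, median and highest levels were 3.39, 4.26 and 5.14 RPKM in the 23 aged libraries and 3.69, 4.64 and 6.53 RPKM in the 24 young libraries. The ranges overlapped, and the aged mean was below the young mean at all 6 times, for example 4.26 ± 0.64 against 4.93 ± 0.36 RPKM at ZT6 (SD, n = 4 each). The log2 difference was -0.14 ± 0.04 (SE), adjusted p = 0.0303 by limma. It missed the threshold after median-ratio scaling of the libraries (adjusted p = 0.116), after quantile normalization (0.183), with array weights (0.0585), with the level of pigment epithelium markers as a covariate (0.110), and without aged ZT10 replicate 3, young ZT2 replicate 1 or young ZT6 replicate 2, each left out alone (adjusted p up to 0.0524). Its adjusted p was 0.0232 without both libraries that stand apart, with a log2 difference of -0.11.

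Ddx58 had the largest difference upward. It had a lowest, median and highest level of 0.325, 0.700 and 1.25 RPKM in aged retinas and of 0.128, 0.572 and 0.83 RPKM in young retinas, so the ranges overlapped. The log2 difference was 0.22 ± 0.07 (SE), adjusted p = 0.0901 by limma, which missed the threshold. It passed after median-ratio scaling (adjusted p = 0.0423), after quantile normalization (0.00975) and with array weights (0.00945). A limma voom fit to recovered reads, which needs no pseudocount of 0.5 RPKM, gave it a log2 difference of 0.42 with adjusted p = 0.116. With the pigment epithelium covariate the log2 difference was 0.15 (adjusted p = 0.382). The lowest young value is from a library that stands apart, and without both such libraries the log2 difference was 0.17 (adjusted p = 0.0630). Markers of microglia summed to 8.78 to 43.7 RPKM (median 26.1) in aged and 0.869 to 26.9 RPKM (median 20.3) in young libraries. Of 8 tested, 2 were higher in aged retinas, beside 2.41% of all genes, and none of the 9 found was at 0. Interferon response genes summed to 13.8 to 57.8 RPKM (median 33.9) in aged and 15.0 to 40.1 RPKM (median 25.3) in young libraries. Of 9 tested, 1 was higher, beside the same 2.41%, and none of 10 was at 0. The part of microglia and of the interferon response in the Ddx58 value was not tested. The other antiviral members stayed below the filter at both ages, with means of 0.277 RPKM in aged and 0.247 RPKM in young libraries for Dhx58, and of 0.138 RPKM in aged and 0.128 RPKM in young libraries for Ddx60.

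Next in order of p were Dhx35, a helicase found in spliceosomes, and Dhx30, which acts in assembly of the mitochondrial ribosome. Dhx35 was at 3.17 to 5.54 RPKM (median 4.03) in aged retinas and at 3.49 to 6.42 RPKM (median 4.57) in young retinas, a log2 difference of -0.10 ± 0.04 with adjusted p = 0.114. Dhx30 was at 8.20 to 12.2 RPKM (median 11.2) in aged retinas and at 10.6 to 12.6 RPKM (median 11.6) in young retinas, a log2 difference of -0.07 ± 0.03 with adjusted p = 0.197. Both pairs of ranges overlapped and neither test by limma passed. Without both libraries that stand apart, 4 members passed, where 16.5% of all genes did. These were Ddx1, higher in aged retinas, and Dhx15 (which dismantles spent spliceosomes), Dhx32 and Dhx34, all lower.

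By role, the medians of the log2 age differences (aged minus young) were all small. The 12 splicing helicases had a median of -0.06 and a range of -0.10 to 0.06, the 16 ribosome biogenesis helicases a median of -0.01 and a range of -0.08 to 0.07, and neither group held a gene that passed the test. The 8 genes of export, translation and decay had a median of 0.03, and 1 of them, Dhx34, fell. The 4 of transcription and small RNA processing, Ddx5, Ddx17, Ddx20 and Dhx9, had a median of 0.01 and none passed. The mitochondrial pair Dhx30 and Ddx28 had -0.07 and -0.09.

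**Figure D2:**
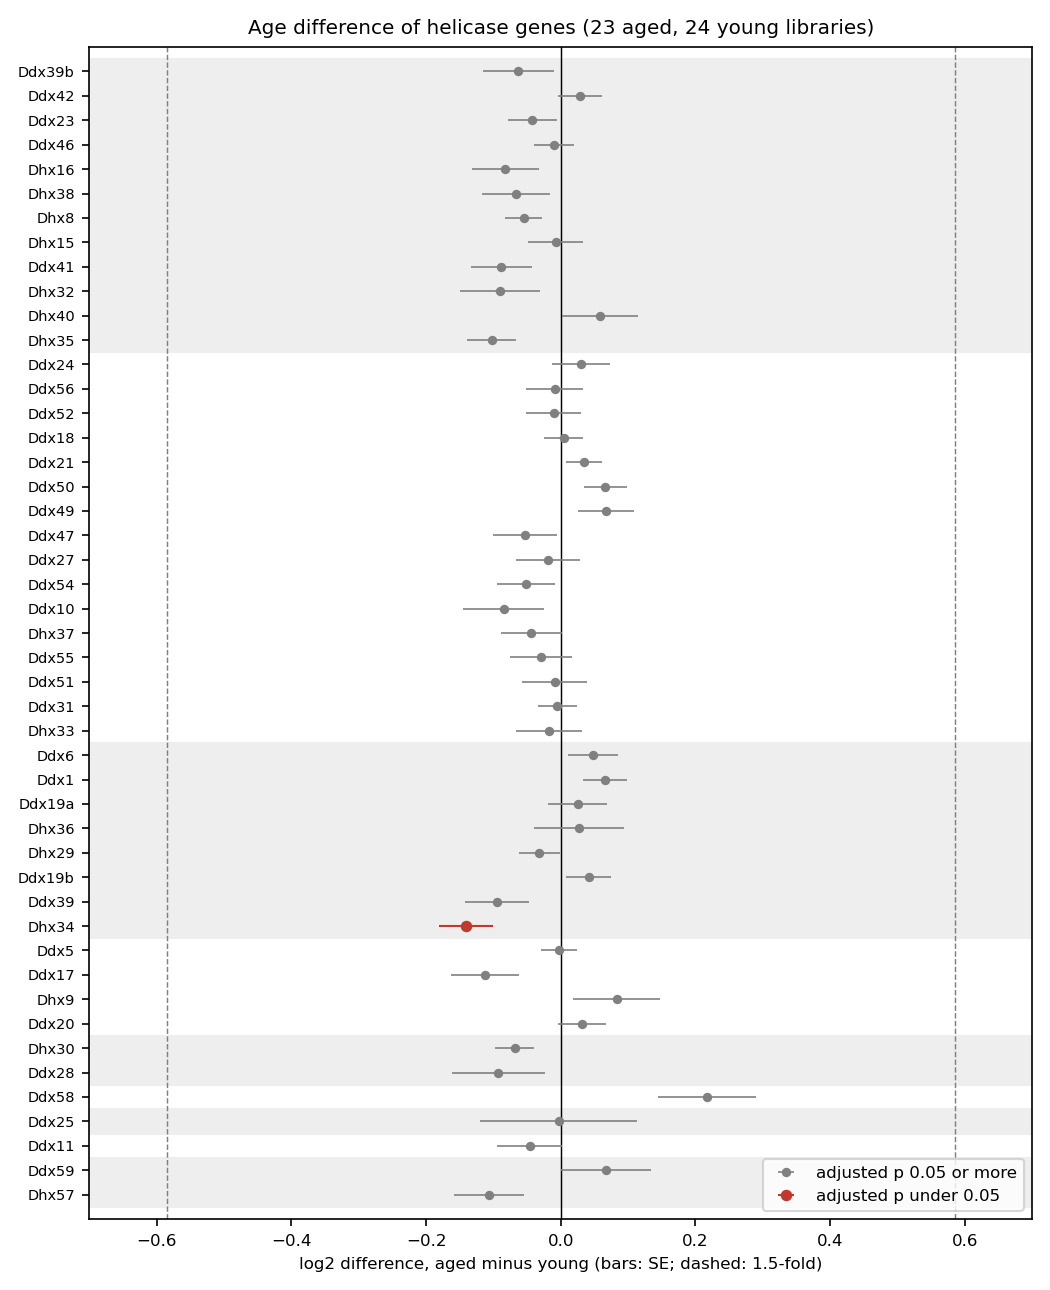
Difference in level of each tested helicase gene between aged and young retinas, as log2 of aged minus young on the log2(RPKM + 0.5) scale, with bars for the SE, grouped by role in grey and white bands. Dhx34, in red, is the gene with an adjusted p under 0.05, and no point reaches the dashed lines of a 1.5-fold difference.

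The second comparison asked which helicase genes cycle over the day at each age. A 24 h cosine was fitted within each age and tested against no change over time. In aged retinas 11 of 47 members (23.4%) passed an adjusted p of 0.05, beside 14.4% of all genes tested. In young retinas 20 of 47 (42.6%) passed, beside 19.7% of all genes. Both tests were passed by 6 members (12.8%), beside 7.56% of all genes. At an unadjusted p under 0.05 there were 20 members in aged retinas, beside 30.1% of all genes, and 22 in young retinas, beside 31.2%. These 6 were Ddx20, Ddx31, Ddx49, Ddx52, Dhx33 and Dhx35. The members' shares were above those of all genes, and their cycles were small: the ratio of peak to trough in the fitted cosine ran from 1.23 to 1.58 (median 1.34) among the 11 in aged retinas and from 1.19 to 1.49 (median 1.27) among the 20 in young retinas. Over all rhythmic genes the median ratio was 1.40 in aged and 1.37 in young retinas. The median amplitude (height of the cosine above its mean, log2 scale) of all 47 members, rhythmic or not, was no larger than that of all genes. It was 0.104 in aged and 0.121 in young retinas, beside 0.146 and 0.125 over all genes. The members' median log2 level was higher, at 3.09 beside 2.27, and its part in their shares was not tested.

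These counts moved with the libraries and the scaling. Without both libraries that stand apart, 25 members passed in aged retinas (27.3% of all genes did), 27 in young retinas (34.0% of all genes) and 21 in both (19.4%). Leaving out aged ZT6 replicate 3 alone gave the same 25 in aged retinas (27.3% of all genes), since cycles were fitted within each age. It gave 15 in both, for which no share of all genes is given here. After median-ratio scaling, 7 members passed in aged retinas, beside 12.4% of all genes, and 12 in young retinas, beside 16.3%. After quantile normalization 7 passed in aged retinas, beside 10.7% of all genes, and 9 in young retinas, beside 16.9%. Every one of those young genes was among the 20, and 6 of the 7 aged genes were among the 11 under each scaling. The aged count after median-ratio scaling and the young count after quantile normalization were near the shares of all genes. So were the aged counts with time as a factor in place of the cosine and at an adjusted p under 0.01, which are given further below. Pigment epithelium markers, from the cell layer behind the retina, moved with time of day. In aged libraries they summed to 8.68 to 59.3 RPKM (median 18.8) in light and 30.0 to 185 RPKM (median 62.4) in darkness. In young libraries they summed to 6.17 to 37.5 RPKM (median 15.7) in light and 17.3 to 95.9 RPKM (median 41.6) in darkness, and none of the 7 markers was at 0 over all libraries. Other lists also moved with time. All 5 blood markers were rhythmic in aged and 0 in young retinas, beside 14.4% and 19.7% of all genes. Their median sum was 59.2 RPKM in light and 315 in darkness in aged libraries, and 59.1 and 55.5 RPKM in young libraries. Of 5 bipolar cell markers, 4 were rhythmic in aged and 1 in young retinas, beside the same shares. Their median sum was 91.8 RPKM in light and 130 in darkness in aged libraries, and 104 and 136 RPKM in young libraries. None of these markers was at 0 over all libraries, and the part of blood and bipolar cells in the members' cycles was not tested. With the mean log2 level of the pigment epithelium markers as a covariate, 5 members passed in aged retinas, beside 5.77% of all genes, and 15 in young retinas, beside 13.1%. All 5 in aged retinas and 14 of the 15 in young retinas had also passed without it.

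Ribosome biogenesis helicases are the largest role group, with 16 of the 47 members. Of the 16, 7 were rhythmic in aged retinas, where 14.4% of all genes were, 10 in young retinas, where 19.7% were, 4 in both, where 7.56% were, and 13 in at least 1 age. The 4 were Ddx31, Ddx49, Ddx52 and Dhx33. Under median-ratio scaling the counts of this group were 5 in aged, where 12.4% of all genes passed, 5 in young, where 16.3% did, and 8 in at least 1 age. Under quantile normalization they were also 5, 5 and 8, where 10.7% of all genes passed in aged and 16.9% in young retinas. Without both libraries that stand apart they were 12 in aged (27.3% of all genes), 12 in young (34.0%) and 14 in at least 1 age. With the pigment epithelium covariate they were 4 in aged (5.77% of all genes), 7 in young (13.1%) and 8 in at least 1 age. The counts for at least 1 age stand without a share of all genes, so they are not compared.

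Ddx52 (ENSMUSG00000020677), whose yeast counterpart acts in early assembly of the small ribosomal subunit, had the largest cycle of the rhythmic members at each age. From ZT2 to ZT22 it averaged 14.2, 17, 14.5, 12.2, 11.1 and 10.2 RPKM in aged retinas (SDs from 0.686 to 3.23) and 14.3, 16.6, 14.4, 11.2, 11.3 and 11.5 RPKM in young retinas (SDs from 0.155 to 2.10). The 4 aged libraries of ZT6 lay between 14.6 and 21.7 RPKM and those of ZT22 between 9.76 and 11.2, so these times did not overlap, and the young libraries of ZT6 (14.4 to 18) and ZT14 (10.8 to 11.4) did not overlap either. The value of 21.7 RPKM is from aged ZT6 replicate 3, which stands apart, and the other aged libraries of ZT6 averaged 15.5. The fitted peak was at ZT6.9 ± 0.53 h in aged retinas, with a peak-to-trough ratio of 1.58 and adjusted p = 0.000172 by limma. In young retinas it was at ZT5.9 ± 0.52 h, with a ratio of 1.49 and adjusted p = 4.94e-05 (errors of peaks are SEs). Without both libraries that stand apart, the amplitude was 0.289 in aged and 0.302 in young retinas. With all libraries it was 0.329 and 0.286, so the order of the ages changed. Ddx52 passed at both ages with each of the 47 libraries left out in turn and under both scalings. Its promoter window, printed above, holds none of the motifs searched.

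Ddx31, a nucleolar helicase whose yeast counterpart serves the large subunit, peaked later in the day. It averaged 2.59, 3.05, 3.31, 3.10, 2.60 and 2.52 RPKM from ZT2 to ZT22 in aged retinas (SDs from 0.121 to 0.227) and 2.72, 3.01, 3.42, 2.97, 2.63 and 2.5 RPKM in young retinas (SDs from 0.123 to 0.325). ZT10 was the highest time at both ages, and its libraries, at 3.12 to 3.47 RPKM in aged and 3.25 to 3.59 RPKM in young retinas, lay above all those of ZT22. The fitted peaks were ZT10.2 in aged (ratio 1.28, adjusted p = 0.00109) and ZT9.6 in young retinas (ratio 1.28, adjusted p = 0.00110). After quantile normalization Ddx31 passed at neither age, with adjusted p of 0.410 in aged and 0.124 in young retinas, and after median-ratio scaling it passed in young (0.0319) but not in aged retinas (0.0757).

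Ddx49, linked to the small subunit in yeast, averaged 5.92, 6.70, 7.37, 6.82, 6.02 and 5.70 RPKM in aged retinas and 6.02, 7.47, 6.53, 6.04, 5.43 and 5.19 RPKM in young retinas. The highest time was ZT10 in aged and ZT6 in young retinas. The fitted cosine peaked at ZT10.4 with a ratio of 1.26 in aged (adjusted p = 0.0128) and at ZT7.7 with a ratio of 1.34 in young retinas (adjusted p = 0.00171). After median-ratio scaling its adjusted p was 0.0981 in aged and 0.00658 in young retinas. Its window, printed above, carries the cyclic AMP element and a match to the interferon element.

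Dhx33 averaged 2.2, 2.66, 2.82, 2.23, 1.86 and 2.07 RPKM in aged retinas and 2.38, 2.66, 2.56, 2.30, 1.86 and 2.21 RPKM in young retinas. The lowest time was ZT18 at both ages. Its ratio was 1.37 in aged (peak ZT8.0, adjusted p = 0.0184) and 1.27 in young retinas (peak ZT6.7, adjusted p = 0.0219), and its window holds an E-box and a match to AGGTCA. With the pigment epithelium covariate its adjusted p was 0.0999 in aged and 0.197 in young retinas.

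Ddx10, which in yeast frees a small nucleolar RNA from the pre-ribosome, passed in aged retinas. It averaged 4.26, 5.0, 5.74, 4.93, 3.73 and 3.95 RPKM from ZT2 to ZT22 in aged retinas (ratio 1.44, peak ZT9.4, adjusted p = 0.00292) and 4.92, 5.76, 4.70, 4.97, 4.53 and 4.55 RPKM in young retinas (ratio 1.15, adjusted p = 0.512). Without both libraries that stand apart it passed at both ages, with adjusted p of 0.000310 in aged and 0.00325 in young retinas.

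The other ribosome biogenesis helicases that passed in aged retinas were Ddx24 (peak ZT7.2, adjusted p = 0.0471) and Ddx54. Ddx54, a nucleolar helicase of the large subunit that also binds nuclear receptors, was the only rhythmic member of aged retinas with a fitted peak in darkness, at ZT16.1 (ratio 1.34, adjusted p = 0.0240). It averaged 4.47, 4.22, 5.64, 5.70, 5.51 and 5.56 RPKM in aged retinas and 5.25, 4.97, 5.06, 5.96, 5.25 and 5.55 RPKM in young retinas, so the aged values were low at ZT2 and ZT6 and level from ZT10 on. Aged ZT6 replicate 3, which stands apart, was at 2.90 RPKM, and the other aged libraries of ZT6 were at 3.88, 5.01 and 5.1. Without both libraries that stand apart, Ddx54 peaked at ZT15.5 in aged retinas (adjusted p = 0.00701 by limma). Its amplitude there was 0.163, beside 0.209 with all libraries. In young retinas its adjusted p with all libraries was 0.357. In young retinas the genes of this role that passed beside the 4 above were Ddx18, Ddx27, Ddx47, Ddx51, Ddx55 and Ddx56, with ratios from 1.2 to 1.27 and peaks from ZT3.4 to ZT9.5. Ddx21 and Ddx50, paralogs that act in ribosomal RNA synthesis, and Dhx37, which releases a small nucleolar RNA from the pre-ribosome, passed at neither age. In the fit without those libraries that stand apart, Ddx18, Ddx27, Ddx51, Ddx56 and Dhx37 also passed in aged retinas, and Ddx24 in young retinas.

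**Figure D3:**
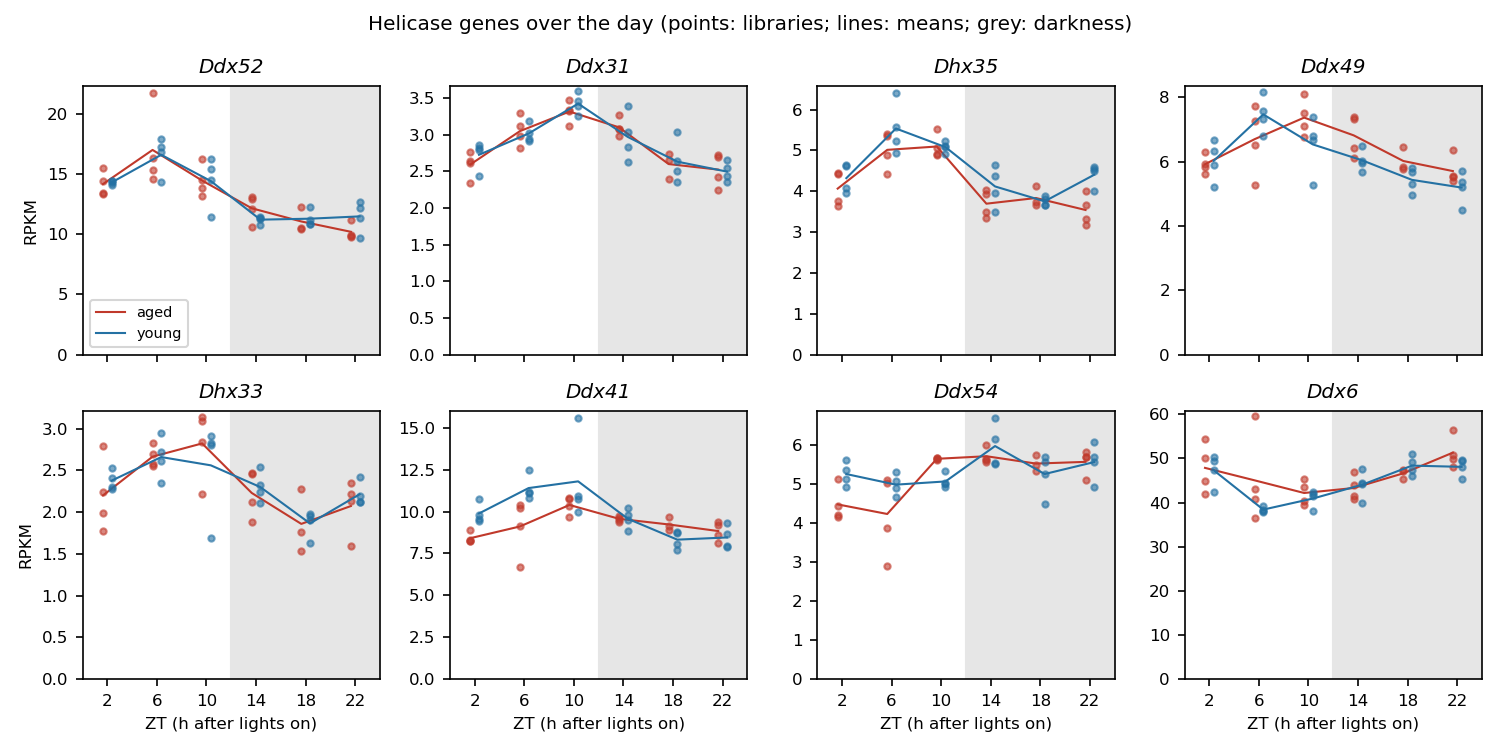
Level in RPKM of helicase genes named for their daily cycle against Zeitgeber time, with 1 point per library, lines through the means of 3 or 4 libraries, aged in red and young in blue, and darkness shaded. Ddx52 is highest at ZT6 at both ages, and Ddx6 is lowest at ZT6 in young retinas. In aged retinas 1 library of ZT6, at 59.7 RPKM, lies far above the other 3, whose mean of 40.2 is below the ZT10 mean of 42.2.

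Among the 12 splicing helicases, 2 were rhythmic in aged retinas (Dhx35 and Dhx40), 3 in young retinas (Ddx39b, Ddx41 and Dhx35) and 8 in neither, not far from the shares of all genes (14.4% in aged and 19.7% in young retinas). The spliceosome's stepwise motors Ddx23, Ddx46, Dhx8, Dhx15, Dhx16 and Dhx38, and Ddx42, a component of the U2 particle, were among the 8, with ratios of at most 1.26 in aged and 1.11 in young retinas. When the libraries that stand apart were left out, Ddx46, Dhx15 and Dhx40 passed at both ages and Dhx38 in aged retinas.

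Dhx35 (ENSMUSG00000027655) averaged 4.07, 5.02, 5.10, 3.70, 3.84 and 3.54 RPKM from ZT2 to ZT22 in aged retinas (SDs from 0.252 to 0.460) and 4.32, 5.54, 5.08, 4.12, 3.75 and 4.41 RPKM in young retinas (SDs from 0.104 to 0.644). The light times ZT6 and ZT10 lay above all 3 dark times at both ages, and the aged libraries of ZT10 (4.89 to 5.54) did not overlap those of ZT14 (3.35 to 4.03). Its ratio was 1.41 in aged (peak ZT7.6, adjusted p = 0.00147) and 1.34 in young retinas (peak ZT6.6, adjusted p = 0.00136), and it passed at both ages with any 1 library left out. Its window carries a pair of E-boxes.

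Ddx41, a helicase found in spliceosomes that has also been described as a DNA sensor, averaged 8.41, 9.11, 10.4, 9.57, 9.23 and 8.84 RPKM in aged retinas and 9.89, 11.4, 11.8, 9.57, 8.32 and 8.46 RPKM in young retinas. In young retinas the ratio was 1.42 with a peak at ZT7.8 (adjusted p = 0.000224), and in aged retinas 1.17 with a peak at ZT12.1 (adjusted p = 0.107). Young ZT10 replicate 4, 1 of the libraries that stand apart, was at 15.6 RPKM. Without both such libraries Ddx41 passed at both ages, with adjusted p of 0.00349 in aged and 7.74e-06 in young retinas. Ddx39b averaged 44.6, 41.1, 49.2, 49.4, 42.2 and 43.6 RPKM in aged retinas and 45.1, 52.0, 53.9, 46.8, 42.6 and 41.1 RPKM in young retinas. Its ratio was 1.15 in aged (adjusted p = 0.440) and 1.30 in young retinas (peak ZT8.6, adjusted p = 0.000806), and aged ZT6 replicate 3 was its lowest aged library at 24.2 RPKM. Ddx39b passed in aged retinas too once both libraries that stand apart were left out (adjusted p = 0.0162).

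In the group of export, translation and decay, 1 of 8 was rhythmic in aged retinas (Dhx36, which unwinds G-quadruplexes) and 2 in young retinas (Ddx6 and Ddx39), beside 14.4% and 19.7% of all genes. Ddx6 peaked at night in young retinas. It averaged 47.9, 45.0, 42.2, 43.3, 46.6 and 51.3 RPKM in aged retinas and 47.3, 38.4, 40.9, 44.1, 48.4 and 48.1 RPKM in young retinas, where the 4 libraries of ZT6 (37.9 to 39.2) lay below all 4 of ZT18 (45.9 to 51.0). The ratio was 1.2 in aged (peak ZT22.5, adjusted p = 0.105) and 1.25 in young retinas (peak ZT20.4, adjusted p = 0.000661). In aged ZT6 replicate 3 Ddx6 was at 59.7 RPKM against a mean of 40.2 in the other 3, and without both libraries that stand apart it passed in aged retinas too (adjusted p = 0.00531). The pore-associated export helicases Ddx19a and Ddx19b, near-identical neighbours whose reads the authors' counting may have split, passed at neither age, nor did Dhx29, which helps ribosomes scan structured leaders.

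Of the transcription and small RNA group, Ddx20, a component of the SMN complex that assembles spliceosomal particles, passed at both ages, with a ratio of 1.23 in aged (peak ZT6.3, adjusted p = 0.0268) and of 1.19 in young retinas (peak ZT5.6, adjusted p = 0.0313). After median-ratio scaling its adjusted p was 0.105 in aged and 0.149 in young retinas. Ddx5 and Ddx17 passed in young retinas, with peaks at ZT23.9 and ZT9.6, and had adjusted p of 0.106 and 0.473 in aged retinas. Ddx5 passed in aged retinas too without both libraries that stand apart (adjusted p = 0.0379). The mitochondrial pair, Ddx58, Ddx25 and Ddx11 passed at neither age, but without both libraries Ddx28 passed at both, with adjusted p of 0.00911 in aged and 0.0247 in young retinas. Dhx57, with no settled role, and Ddx59, linked to cilia in people with facial and digital malformations, passed in young retinas.

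Peaks of the rhythmic members fell mostly in the light. In aged retinas 10 of 11 had a fitted peak between ZT0 and ZT12, and these were 21.3% of the 47 members where 8.26% of all genes were rhythmic with such a peak. In young retinas 18 of 20 did, 38.3% of the members where 15.1% of all genes did. The exceptions were Ddx54 in aged retinas and Ddx5 and Ddx6 in young retinas. Over all rhythmic genes, 57.3% peaked in the light in aged and 76.3% in young retinas.

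**Figure D4:**
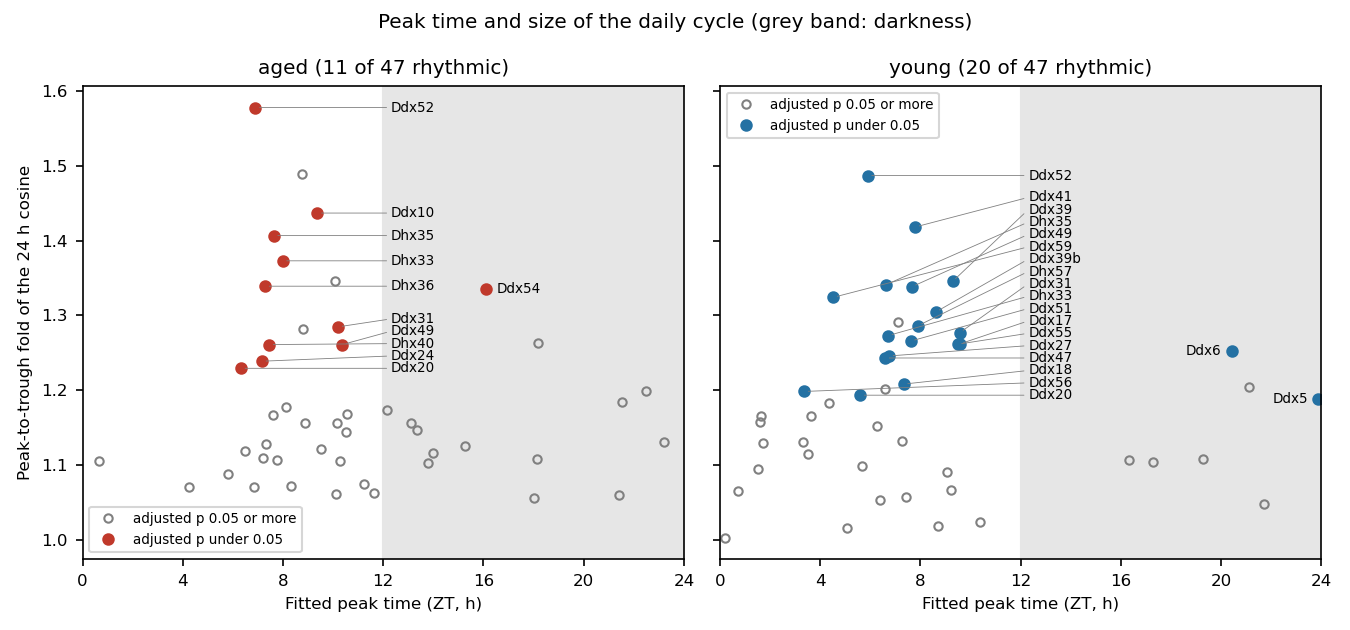
Fitted peak time (ZT, h) against the ratio of peak to trough of the fitted 24 h cosine for the 47 tested helicase genes in aged and young retinas, with filled points for an adjusted p under 0.05 and darkness shaded. Rhythmic genes crowd between ZT3 and ZT11, and Ddx52 stands highest at both ages.

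Whether the cycle itself differs between ages was tested by the difference of the cosine and sine terms. No member passed, nor did more than 1 of the 15321 genes (0.00653%), and at an unadjusted p under 0.05 there were 7 of 47 members (14.9%) and 7.75% of all genes. The smallest p-values were those of Ddx41, Ddx39, Ddx56 and Ddx59, all with an adjusted p of 0.606 by limma. Ddx39, an mRNA export helicase, had a ratio of 1.10 in aged and 1.35 in young retinas. Ddx56, of the large subunit, had a ratio of 1.16 with a peak at ZT10.2 in aged and of 1.2 with a peak at ZT3.4 in young retinas, and Ddx59 had a ratio of 1.17 in aged and 1.32 in young retinas. In aged ZT6 replicate 3 Ddx59 was at 1.40 RPKM against a mean of 3.67 in the other 3. With that library and young ZT10 replicate 4 left out, Ddx41, Ddx56 and Ddx59 each passed as rhythmic in aged retinas (adjusted p = 0.00906 for Ddx56 and 0.0144 for Ddx59), and Ddx39 did not. The smaller number of rhythmic members in aged than in young retinas is therefore a difference of counts and not a tested change of any gene's cycle. An interaction of age with the 6 times passed for no member and for 0 of all genes (0%), and at an unadjusted p under 0.05 for 4 members (8.51%) beside 4.8% of all genes.

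With all libraries, the 6 genes rhythmic at both ages each had a later fitted peak in aged than in young retinas. The shifts (aged minus young) were 0.63 h for Ddx31, 0.72 h for Ddx20, 0.99 h for Dhx35, 1.01 h for Ddx52, 1.27 h for Dhx33 and 2.71 h for Ddx49, with a median of 1.00 h. Among all 1158 genes rhythmic at both ages, 56.3% peaked later in aged retinas and the median shift was 0.22 h. The libraries that stand apart decide the direction for 1 of the 6. Without both, Ddx20 peaked earlier in aged retinas (shift -0.17 h), and the shifts were 0.65 h for Dhx33, 0.80 h for Ddx52, 0.84 h for Ddx31, 0.94 h for Dhx35 and 1.79 h for Ddx49, with a median over the 6 of 0.82 h. Of the 21 members rhythmic at both ages in that fit, 17 (81.0%) peaked later in aged retinas, beside 65.6% of the 2969 genes rhythmic at both ages, whose median shift was 0.52 h. Samples were taken every 4 h, the SEs of these peaks ran from 0.516 to 1.05 h, and the test of the difference in rhythm passed for none of the 6, so the shifts are given as values.

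**Figure D5:**
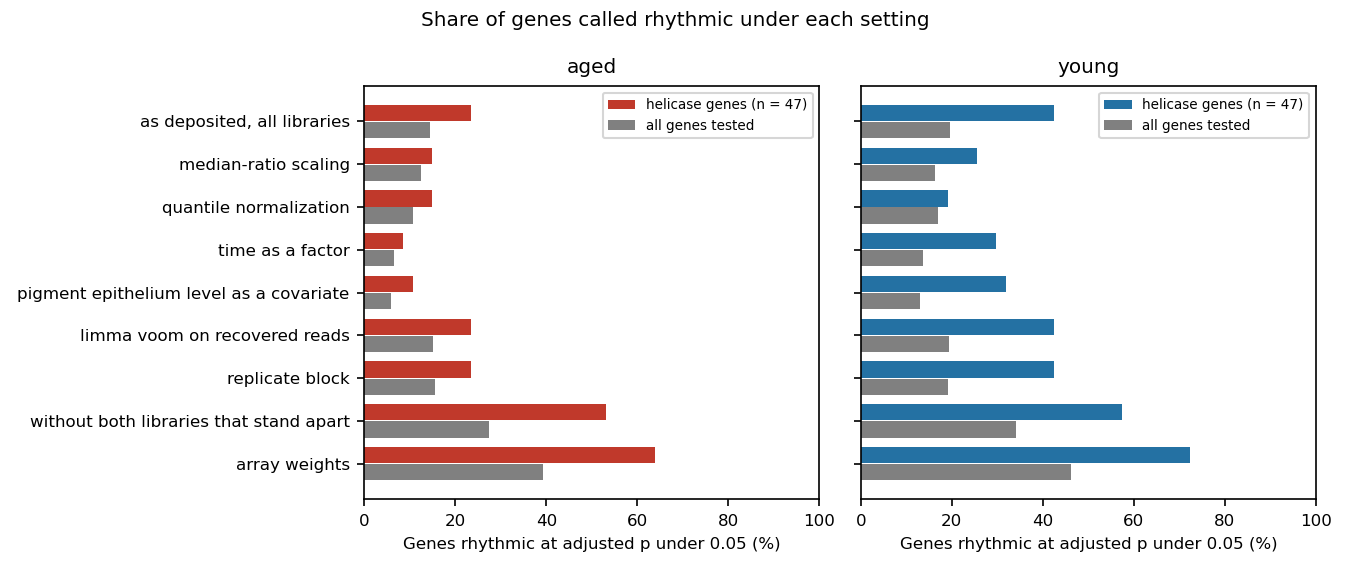
Share of genes called rhythmic at an adjusted p under 0.05 (%) in aged and young retinas under each setting, with the 47 helicase genes in colour above all genes tested in grey. The helicase bar is the longer of each pair under all 9 settings shown. The lead is small in aged retinas after median-ratio scaling and with time as a factor, and in young retinas after quantile normalization. Leaving out the libraries that stand apart, or weighting libraries, lengthens both bars.

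Related genes outside the name families were read from 2 lists. Of 17 tested RNA helicases with other names, 0 were higher in aged retinas, beside 2.41% of all genes, and 1 was lower, beside 1.83%. The lower gene was the germ line helicase Tdrd9 (log2 difference -0.22, adjusted p = 0.0486 by limma, with adjustment over all genes). In aged retinas 3 were rhythmic, beside 14.4% of all genes, in young retinas 2, beside 19.7%, and in both 1, the mitochondrial helicase Supv3l1, beside 7.56%, shares not far from those of all genes. The aged genes included the translation factor Eif4a1, with an amplitude of 0.20 on the log2 scale (the height of the cosine above its mean), a peak at ZT18.4 and adjusted p = 0.000304. In young retinas its adjusted p was 0.327. The list of partners of these helicases, such as G-patch activators, export complex subunits and decapping factors, held 41 tested genes. Of these, 1 was higher in aged retinas, beside 2.41% of all genes, and none was lower, beside 1.83%. The higher gene was the RIG-I ubiquitin ligase Trim25 (log2 difference 0.12, adjusted p = 0.0456 by limma), and this count was near the share of all genes. In aged retinas 4 partners were rhythmic, beside 14.4% of all genes, in young retinas 11, beside 19.7%, and in both 2, beside 7.56%. In a list of 41 genes these counts differ from the shares of all genes by few genes, and are not read as a trait of the list. The genes rhythmic in both were the pore factor Gle1 and the export complex subunit Thoc1. Gpatch4, a nucleolar G-patch protein, peaked at ZT8.3 in young retinas (amplitude 0.30 on the log2 scale, adjusted p = 0.000448) and had adjusted p = 0.0635 in aged retinas.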

How the data were processed

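Poly-T beads selected the retinal mRNA and random hexamers primed its cDNA, per the labels' protocols. The authors deposited RPKM values with 1 column per library, and FastQC 0.23.4, HISAT2 2.2.1, Subread 2.0.6 and the build GRCm39 are listed by the submitters' processing notes. Not given in the sources used here were the annotation release, the treatment of multi-mapped reads and any batch. RPKM is scaled by library and by exon length, so a rise in a few abundant genes lowers all others. Of the table's columns, 1 matched no sample and was not used. Symbols came from GENCODE M21, which named 51884 of 57180 genes and left 5296 unnamed. Read totals were recovered from the RPKM steps with M21 exon lengths, and 32767 of 34945 genes above 0 (93.8%) and 46 of 47 members gave whole reads within 0.01. In 69 pairs of libraries of 1 group, the mean chi-square over genes was at least 6.94, so no library was counted as a repeat of another.

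Genes that reached 0.5 RPKM in 12 or more libraries entered the fit with limma 3.58.1 in R 4.3.3 on log2(RPKM + 0.5), which understates changes of low genes, with empirical Bayes moderation, a trend and Benjamini-Hochberg adjustment over all 15321 genes. Age was averaged over the 6 times. Cycles were 24 h cosines within each age, and their difference and the age by time interaction were tested. The steps were tested on simulated data. P-values measure the spread between mice. The libraries' replicate numbers did not pair the ages. The members and gene lists were chosen with earlier results of these data known. Members named in the text were those with the smallest p for age, for each rhythm and for the difference, the highest and lowest levels, the antiviral sensors, and further members of each role, chosen after their values were seen. Motifs were searched in RefSeq promoter windows matched by Ensembl id, or by symbol or synonym where that failed. Alternatives were another pseudocount (0.1 or 1), no filter, median-ratio and quantile scaling, array weights, time as a factor, a replicate block, an adjusted p of 0.01 and leaving out libraries. A voom fit to recovered reads and a pigment epithelium covariate were chosen after seeing the data.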

Additional observations from a re-analysis of the deposited data

Results flagged for a closer look

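Among 198 groups of 4 libraries, for 18 genes of the named set, 17 held a library far from the other 3, which chance gives in about 1 group in 20. Of these, 5 were in young ZT10 replicate 4 and 2 in aged ZT6 replicate 3. In young ZT10 replicate 4, Ddx39 was at 7.23 RPKM (others 4.82 to 5.13), Ddx39b at 68.7 (47.6 to 49.8), Ddx41 at 15.6 (9.96 to 10.9), Ddx58 at 0.128 (0.611 to 0.702) and Dhx33 at 1.69 (2.81 to 2.91). In aged ZT6 replicate 3, Ddx10 was at 4.03 RPKM (others 5.23 to 5.38) and Ddx56 at 9.35 (13.8 to 14.5).

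The rest were spread over 9 other libraries. In aged retinas, Ddx17 was at 73.6 RPKM in ZT14 replicate 3 (others 90.4 to 92.9), Ddx39 at 4.42 in ZT14 replicate 2 (5.01 to 5.08), Ddx41 at 8.87 in ZT2 replicate 1 (8.22 to 8.30), Ddx49 at 6.35 in ZT22 replicate 2 (5.41 to 5.54) and Ddx52 at 11.2 in ZT22 replicate 4 (9.76 to 9.98). In young retinas, Ddx17 was at 69.5 RPKM in ZT18 replicate 4 (83.1 to 84.6), Ddx39 at 4.74 in ZT18 replicate 1 (4.37 to 4.42), and Dhx34 at 5.83 in ZT2 replicate 1 (4.60 to 4.79). In young ZT6 replicate 4, Ddx39 was at 4.83 RPKM (5.75 to 5.90) and Ddx39b at 49.5 (52.7 to 53.1). The Dhx34 age difference missed the threshold without young ZT2 replicate 1.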

How the results depend on the processing

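No helicase gene passed a 1.5-fold age difference or a difference of rhythms in any setting, and the interaction of age and time passed for members with array weights alone (7: Ddx24, Ddx41, Ddx54, Ddx56, Ddx59, Dhx36 and Dhx40, where 10.4% of all genes passed). Members different with age were 1 as deposited (4.24% of all genes). They numbered 0 at an adjusted p under 0.01 (2.32%) and 0 with the pigment epithelium covariate (3.02%). They numbered 2 with array weights (Ddx58 higher, Dhx32 lower, beside 15.6% of all genes) and 4 without both libraries that stand apart (16.5%). After median-ratio scaling and after quantile normalization the 1 member was Ddx58, higher in aged retinas, in place of Dhx34, lower. Members rhythmic in aged retinas were 11 as deposited (14.4% of all genes). They numbered 4 at an adjusted p under 0.01 (6.33%) and 4 with time as a factor (6.55%). They numbered 30 with array weights (39.3%) and 25 without both libraries (27.3%). The count was 7 after median-ratio scaling (12.4%), 7 after quantile normalization (10.7%) and 5 with the covariate (5.77%). Members rhythmic in young retinas were 20 as deposited (19.7% of all genes). They numbered 13 at an adjusted p under 0.01 (11.3%) and 34 with array weights (46.1%). The count was 12 after median-ratio scaling (16.3%) and 9 after quantile normalization (16.9%). It was 14 with time as a factor (13.7%), and within 1.5 times of 20 under this and the other settings. Members rhythmic in both were 6 as deposited (7.56% of all genes). They numbered 3 at an adjusted p under 0.01 (3.54%), 3 after quantile normalization (5.88%) and 3 with time as a factor (3.97%). They numbered 25 with array weights (27.6%) and 21 without both libraries (19.4%). The pseudocounts and the absence of a filter moved no count by more than 1.5 times.

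Leaving out 1 library at a time gave 0 to 3 members different with age, 0 at a 1.5-fold difference, 8 to 25 rhythmic in aged retinas, 18 to 27 in young retinas, 5 to 15 in both, and 0 for the difference of rhythms and the interaction. The age count was 3 without young ZT10 replicate 4 and 2 without aged ZT2 replicate 4. The 25 and 15 were those without aged ZT6 replicate 3, where 27.3% of all genes were rhythmic in aged retinas. The cause of these changes was not tested. The voom fit to recovered reads, over 14864 genes, called the same 1, 11, 20 and 6 members (age, aged, young and both).

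Deviations from the group means, over all tested genes, were correlated between same-numbered aged and young libraries. The correlations ran from -0.486 to 0.428 over 23 pairs (median 0.0089). Of these, 10 were over 0.1, and 7 of 23 aged libraries correlated best with their own number. With a replicate block the counts were 1 for age, 11 in aged (10 of them shared), 20 in young and 6 in both. Dhx34 had an adjusted p of 0.0246 with the block.

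The SE of the age difference was under 0.1 on the log2 scale for all tested members but Ddx25 (0.117). Ddx11 and Ddx58 averaged under 1 RPKM, where the pseudocount of 0.5 shrinks differences.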
